A study of Mus musculus with 10 samples.

Results

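Vascular growth factors and the genes of oxygen sensing were followed in retinal microglia, sorted from diabetic mice and from controls. The group holds 10 genes chosen by name from the 55487 genes of the count table: the ligands Vegfa, Vegfb, Pdgfa, Pdgfb and Adm, the transcription factors Hif1a and Epas1, their regulators Egln1 and Vhl, and the target Bnip3. All 10 were found, and all 10 passed the filter on low counts, Vegfa and Adm only through a few libraries. The mice carried Cx3cr1GFP/+, an allele that puts green fluorescent protein (GFP) in place of 1 copy of the gene for the fractalkine receptor and so marks microglia and other myeloid cells, so every group, controls included, lacked 1 working copy of Cx3cr1. Diabetes was induced with streptozotocin (STZ), a toxin of pancreatic beta cells. The groups were 4wk STZ, with 3 animals at 4 weeks of diabetes, 8wk STZ, with 4 animals at 8 weeks, and Control, with 3 littermates. Both retinas of an animal were pooled, digested with papain and sorted for live GFP-positive cells, so each library is 1 animal. The labels give no age, sex or library batch, and no control set for each time point, so that age and time after the drug cannot be told apart.

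When oxygen is plentiful, the prolyl hydroxylase encoded by Egln1 marks the alpha subunits of the hypoxia-inducible factors (HIF), and the von Hippel-Lindau protein, from Vhl, directs them to degradation. When oxygen is short, HIF-1 alpha (Hif1a) and HIF-2 alpha (Epas1) accumulate as proteins and bind hypoxia response elements near genes such as Vegfa, Adm, Bnip3 and Egln1 itself. Control of the alpha subunits is therefore largely at the protein level, which transcript counts do not measure. In diabetic retinopathy, vascular endothelial growth factor A from Vegfa drives vessel leakage and growth, and Müller glia are known as a main retinal source. Platelet-derived growth factor B recruits pericytes to vessels.

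Total reads per library ran from 33266838 to 62903489. The 10 microglial markers, among them P2ry12, Tmem119 and Csf1r, summed to 39171 to 43734 CPM (the usual depth-normalised read count, with library sizes scaled by the trimmed mean of M values, TMM) in Control, with ranges of 34736 to 38630 at 4 weeks and 31218 to 33944 at 8 weeks. Rod photoreceptor markers differed between the groups as well (12 of 12 called lower at 8 weeks and 0 of 12 at 4 weeks, against Control), from 8962 to 9946 CPM in Control to 4309 to 6219 at 4 weeks and 2662 to 3748 at 8 weeks. The 11 endothelial markers summed to 4.44 to 15.7, 9.12 to 11.1 and 7.56 to 16.2 CPM in these groups, and Erg, an endothelial transcription factor, had no read in Control or 4wk STZ. The 10 markers of pericytes and smooth muscle summed to 7.71 CPM or less in every library. In bulk libraries, fewer cells of a type and less RNA per cell cannot be told apart. How rod transcripts came into libraries sorted for GFP-positive cells was not tested.

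Per kilobase of exon, Vhl had the highest level of the group in Control at 37.8 ± 4.41 CPM per kb (SD, n = 3). Pdgfb (14.7 ± 1.05), Bnip3 (14.6 ± 2.11) and Hif1a (14.3 ± 2.03 CPM per kb) came next and lay within 1 SD of each other. Below them, Pdgfa stood at 7.07 ± 1.09, Vegfb at 6.17 ± 3.64 and Egln1 at 5.49 ± 1.46 CPM per kb, again within their spread. Epas1 was at 3.03 ± 0.427 CPM per kb. Adm, at 0.259 ± 0.228, and Vegfa, at 0.0395 ± 0.0501 CPM per kb, closed the order, and their SDs were nearly as large as their means or larger. Transcripts of the platelet-derived growth factors and of the HIF-1 alpha gene were thus readily counted in these libraries, and those of Vegfa and Adm were near the limit of detection.

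None of the 10 genes passed the test in any of the 3 comparisons, at an adjusted p below 0.05 (edgeR's quasi-likelihood test with Benjamini-Hochberg adjustment over 18957 genes). Over all genes tested the test called 0% in 4wk STZ against Control, 2.37% in 8wk STZ against Control (0.971% higher and 1.4% lower) and 0.918% in 8wk STZ against 4wk STZ (0.396% higher and 0.522% lower). In the same order, DESeq2 called 0, 1 and 3 of the 10, edgeR's likelihood ratio test 0, 1 and 2, and limma-voom 0 in each. These methods called other numbers of the 18957 genes than the main test, which called 0, 449 and 174. DESeq2 called 299, 1436 and 995, the likelihood ratio test 244, 1166 and 759, and limma-voom 0, 605 and 209. At an unadjusted p below 0.05 there were 2, 3 and 4 of the 10 genes in these comparisons, beside 9.75%, 15.7% and 13.7% of all genes. The groups did not overlap for 2 of the 10 in each comparison, beside 12.3%, 16.9% and 15.4% of all genes, which is near the share of the 10. By direction, all genes gave 6.07% higher and 6.25% lower at 4 weeks, 8.91% and 7.99% at 8 weeks, and 8.39% and 6.97% between the times. The 10 gave Pdgfb and Epas1 lower at 4 weeks, Hif1a and Epas1 lower at 8 weeks, and Pdgfb higher with Hif1a lower between the times. The median log2 fold change of the 10 was -0.08, -0.15 and -0.08, against -0.0039, -0.0061 and -0.00045 over all genes. Both comparisons with Control use the same 3 control libraries.

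**Figure D1:**
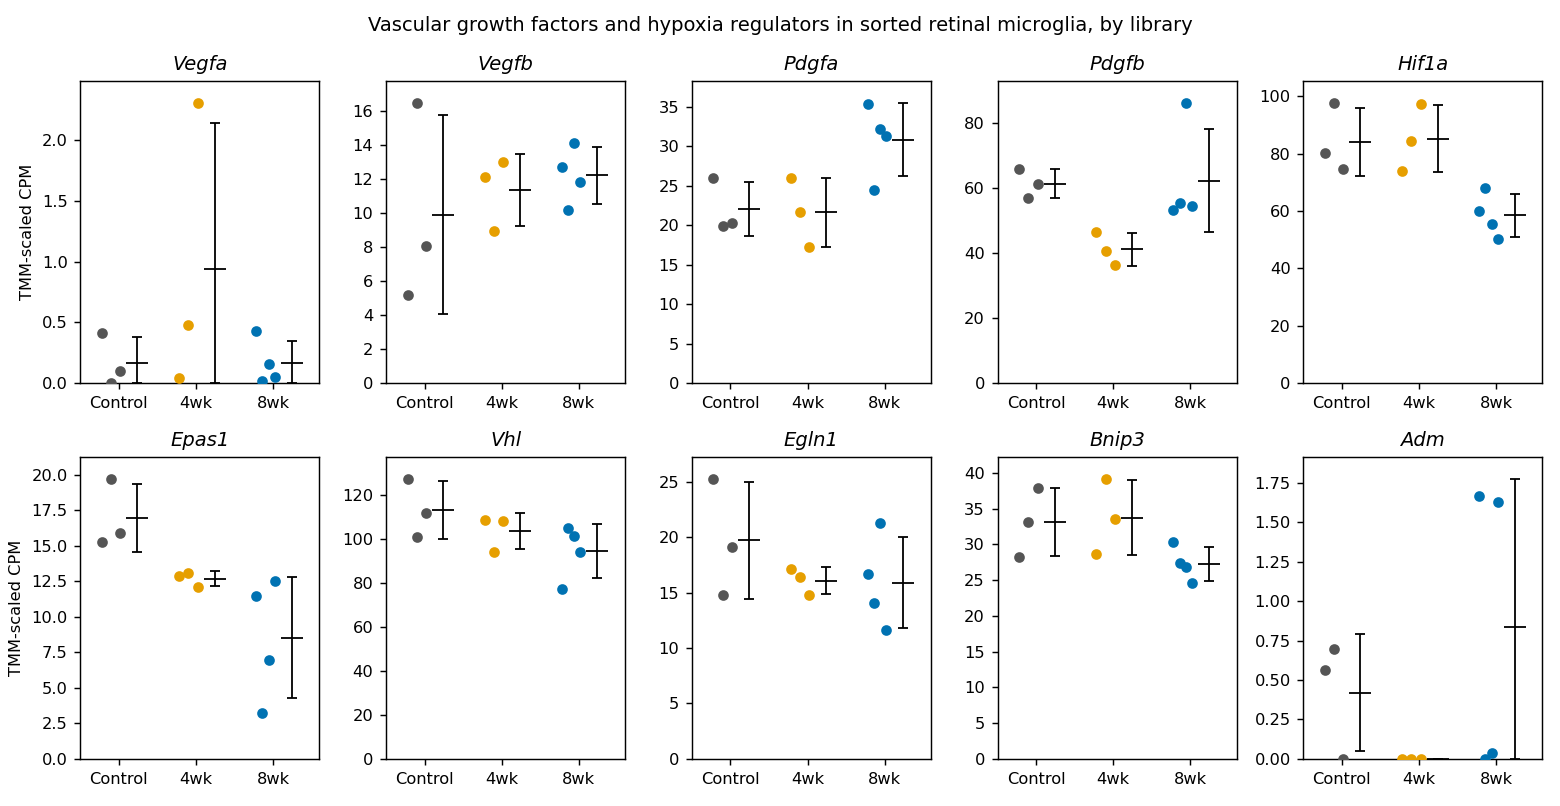
TMM-scaled CPM of each of the 10 genes (vertical axis, starting at 0, its own scale per panel) in Control, 4wk STZ and 8wk STZ. Each point is 1 library, and the short line with its error bar is the group mean ± SD, with the lower error stopped at 0; Hif1a and Epas1 lie lower in all 4 8wk STZ libraries than in any Control library, and Pdgfb lies lower in all 3 4wk STZ libraries than in any other library.

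The promoters of the 10 genes were searched for the letters that HIF is known to bind. Windows of 300 bases, from 250 before to 50 after the start site, were found in RefSeq (GRCm38.p6) for 8 of the 10 genes, in 10 windows, and not for Pdgfb and Epas1. They were searched on both strands for ACGTG and GCGTG, the core of the hypoxia response element. A match to CACGTG reads as ACGTG on both strands and counts on each. Of the 10 windows 7 held a match, as did 43.8% of all 32851 windows (ACGTG in 19.6% and GCGTG in 32.4%). Bnip3 had the most, with 5. Neither motif was in the Vhl window, nor in the 1 of 2 Vegfa windows that lies at the gene's 5′ end. A match is a description of the letters and not evidence of binding. The windows of the transcription factor gene Hif1a (chr12:73907617-73907916, plus strand), the oxygen sensor gene Egln1 (chr8:124949205-124949504, minus strand), and the HIF targets Bnip3 (chr7:138909457-138909756, minus strand) and Adm (chr7:110627407-110627706, plus strand) are shown 5′ to 3′ on the gene's strand, with the matches in capitals (CACGC is GCGTG read on the other strand), because they belong to the HIF-1 alpha gene itself and to genes known as targets of HIF.
Hif1a: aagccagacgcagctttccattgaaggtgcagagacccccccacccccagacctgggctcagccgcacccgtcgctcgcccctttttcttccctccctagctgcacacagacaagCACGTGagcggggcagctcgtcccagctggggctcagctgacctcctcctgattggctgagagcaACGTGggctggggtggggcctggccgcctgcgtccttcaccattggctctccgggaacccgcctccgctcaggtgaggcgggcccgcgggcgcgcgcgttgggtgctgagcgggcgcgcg
Egln1: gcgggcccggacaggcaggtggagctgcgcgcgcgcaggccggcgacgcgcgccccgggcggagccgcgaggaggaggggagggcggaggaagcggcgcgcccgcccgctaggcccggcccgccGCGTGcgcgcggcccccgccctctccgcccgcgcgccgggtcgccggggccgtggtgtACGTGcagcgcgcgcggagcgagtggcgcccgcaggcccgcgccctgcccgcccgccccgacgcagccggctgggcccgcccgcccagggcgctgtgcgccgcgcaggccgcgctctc
Bnip3: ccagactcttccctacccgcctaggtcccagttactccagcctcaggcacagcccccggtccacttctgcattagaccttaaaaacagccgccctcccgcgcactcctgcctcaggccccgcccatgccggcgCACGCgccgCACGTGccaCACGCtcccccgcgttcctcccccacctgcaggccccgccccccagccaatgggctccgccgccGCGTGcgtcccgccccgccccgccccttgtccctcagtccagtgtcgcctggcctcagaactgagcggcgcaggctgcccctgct
Adm: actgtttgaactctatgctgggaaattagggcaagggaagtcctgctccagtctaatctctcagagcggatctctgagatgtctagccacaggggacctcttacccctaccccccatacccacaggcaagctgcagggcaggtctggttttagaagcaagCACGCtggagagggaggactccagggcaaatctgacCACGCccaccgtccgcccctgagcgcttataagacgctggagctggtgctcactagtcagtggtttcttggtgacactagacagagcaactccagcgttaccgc
The Hif1a window held 3 matches, of which a pair is the CACGTG, and Egln1 and Adm held 2 each.

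Vegfa, the main angiogenic ligand of the retina (chromosome 17, 46016993 to 46032369, minus strand, GRCm38, protein-coding), was almost absent from these libraries. It had 24 reads over the 3 Control libraries, 99 over 4wk STZ and 39 over 8wk STZ. By library that was 0.411, 0 and 0.0973 CPM in Control 1 to 3, 0.0415, 0.477 and 2.30 CPM in 4wk STZ 1 to 3, and 0.428, 0.020, 0.159 and 0.0504 CPM in 8wk STZ 1 to 4. Only 4wk STZ 3 exceeded 1 CPM, and the groups overlapped. The 4wk STZ reads were 4.56 times those of Control after scaling to equal depth, with a 95% counting interval of 2.89 to 7.45 that leaves out the spread between animals. The fitted log2 fold change was 2.45 (SE 1.67, adjusted p = 0.712), and ran from 0.61 without 4wk STZ 3 to 4.17 without Control 1. For 8wk STZ against Control the read ratio was 1.04, with a counting interval of 0.608 to 1.80.

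Vegfb encodes a ligand of the same family that binds the receptor Flt1 (chromosome 19, 6982473 to 6987651, minus strand). Its levels were 5.21, 16.4 and 8.04 CPM in Control 1 to 3, 12.1, 8.97 and 13.03 CPM in 4wk STZ, and 12.7, 10.2, 14.1 and 11.9 CPM in 8wk STZ. The 3 groups overlapped, and Control held both the lowest and the highest library. In 8wk STZ against Control the log2 fold change was 0.30 with a 95% interval of -0.45 to 1.06 (adjusted p = 0.783), an interval that holds both higher and lower levels. The value was 0.88 without Control 2. Among 10 libraries Vegfb always had more reads than Vegfa, from 241 to 802 against 0 to 74.

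Adm encodes adrenomedullin, a peptide that dilates vessels and tightens the endothelial barrier (chromosome 7, 110627661 to 110629820, plus strand). No read was found in any 4wk STZ library, against 57 reads over Control and 204 over 8wk STZ. The levels were 0.562, 0.698 and 0 CPM in Control, and 1.67, 0, 0.0398 and 1.63 CPM in 8wk STZ 1 to 4. Reads came from 2 of 3 Control libraries and almost wholly from 8wk STZ 1 and 4. With a floor of 3 reads put in for 4wk STZ, Adm was 17.2-fold lower there than in Control and 39.2-fold lower than in 8wk STZ. These are ratios to the observed reads and not lower bounds. The 95% counting limit of the 4wk STZ to Control ratio was 0.0739 at most. That of the 8wk STZ to 4wk STZ ratio was 31.6 at least. Such counting values leave out the spread between animals. A library at 0 stood in every group, and edgeR's test did not call Adm (adjusted p = 0.479 and 0.261). 8wk STZ 1 and 4 were also the libraries with the most reads of the 7 border macrophage markers, at 511 and 666 CPM, against 228 and 62.4 CPM in 8wk STZ 2 and 3. In the other groups those markers ran from 146 to 438 CPM, and 4wk STZ 2 had 420 CPM with no Adm read. The part of such cells in the Adm reads was not tested.

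Pdgfb, which encodes the B chain of platelet-derived growth factor (chromosome 15, 79995874 to 80014977, minus strand), was lower in 4wk STZ than in the other groups, without passing the test. Its levels were 65.8, 57.0 and 61.1 CPM in Control, 46.5, 40.5 and 36.3 CPM in 4wk STZ, and 53.1, 55.2, 85.9 and 54.4 CPM in 8wk STZ. Every 4wk STZ library lay under every Control and every 8wk STZ library. No 8wk STZ library lay inside the Control range, with 8wk STZ 3 above it and 8wk STZ 1, 2 and 4 below. In 4wk STZ against Control the log2 fold change was -0.58 (SE 0.19, adjusted p = 0.367). In 8wk STZ against 4wk STZ it was 0.60 (SE 0.179, adjusted p = 0.163), and 0.40 (adjusted p = 0.265) without 8wk STZ 3. The authors' deposited table gives a log2 fold change of -0.57 with an FDR of 0.170 for 4 weeks, and 0.02 with an FDR of 0.983 for 8 weeks.

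Pdgfa encodes the A chain, which pairs with itself or with the B chain (chromosome 5, 138976014 to 138997370, minus strand). Its levels were 25.95, 19.9 and 20.3 CPM in Control, 25.98, 21.7 and 17.2 CPM in 4wk STZ, and 35.3, 24.4, 32.2 and 31.3 CPM in 8wk STZ. The 4 8wk STZ libraries were high apart from 8wk STZ 2, which lay inside the range of the other groups. The log2 fold change was 0.48 in 8wk STZ against Control (SE 0.191, adjusted p = 0.246) and 0.51 against 4wk STZ (SE 0.192, adjusted p = 0.268). The antisense gene 6330403L08Rik shares 26.1% of the exonic bases of Pdgfa, and the library kit does not mark strand, so that reads of the pair cannot be told apart. That gene itself stood at 2.81 ± 2.16 CPM in Control and 3.41 ± 1.31 CPM in 8wk STZ.

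Within a library, where scaling between libraries plays no part, the ratio of Pdgfb to Pdgfa per length was 2.10 ± 0.184 in Control, 1.44 ± 0.123 at 4 weeks and 1.53 ± 0.393 at 8 weeks. It ran from 1.90 to 2.26 in Control and from 1.34 to 1.58 in 4wk STZ, without overlap. In 8wk STZ it ran from 1.13 to 2.00 and overlapped both. This ratio was chosen after the levels were seen and is given without a test. Pdgfrb, the receptor of the B chain and a pericyte gene, was named after its values were seen. It stood at 2.94 ± 0.882, 0.837 ± 0.584 and 0.975 ± 0.167 CPM in Control, 4wk STZ and 8wk STZ (adjusted p = 0.45 and 0.239 against Control by edgeR's test). The 10 markers of pericytes and smooth muscle had median sums of 4.61, 3.52 and 5.31 CPM in these groups. Of the 6 tested, 3 were higher and 3 lower at 4 weeks, and 2 higher and 4 lower at 8 weeks, none called.

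Hif1a (chromosome 12, 73901375 to 73947530, plus strand) came nearest to a call after 8 weeks. Its levels were 80.1, 97.5 and 74.5 CPM in Control, 73.9, 84.2 and 97.4 CPM in 4wk STZ, and 60.1, 68.1, 55.4 and 50.2 CPM in 8wk STZ. All 4 8wk STZ libraries lay under all 6 others, while Control and 4wk STZ overlapped. The log2 fold change in 8wk STZ against Control was -0.52 (SE 0.143, 95% interval -0.84 to -0.21, adjusted p = 0.0894). In 8wk STZ against 4wk STZ it was -0.54 (SE 0.143, adjusted p = 0.114), and in 4wk STZ against Control 0.02 (SE 0.154, adjusted p = 0.987). Of the tested genes, 4.36% had a p as small or smaller in 8wk STZ against Control. The authors' deposited table lists -0.53 with an FDR of 0.0208 for this comparison, from a likelihood ratio statistic. DESeq2 and edgeR's likelihood ratio test also put it under 0.05, at adjusted p = 0.0134 and 0.0255. In 20 alternative analyses its log2 fold change ran from -0.61 to -0.40 and its adjusted p from 0.0134 to 0.254. The sums of microglial and of rod markers were also lowest in 8wk STZ, and their part in the Hif1a level was not tested. Antisense Gm15283, sharing 5.60% of the exonic bases of Hif1a, was at 0.516 ± 0.321 CPM in Control and 0.574 ± 0.299 CPM in 8wk STZ. The protein-coding gene Gm49321, on the same strand, shares 2.51%. As for Pdgfa, reads of the shared bases cannot be told apart.

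Epas1, which encodes the HIF-2 alpha subunit and is known for its abundance in endothelium (chromosome 17, 86753700 to 86833410, plus strand), was highest in Control. Its levels were 15.3, 19.7 and 15.9 CPM in Control, 12.9, 13.1 and 12.1 CPM in 4wk STZ, and 11.5, 3.25, 6.94 and 12.5 CPM in 8wk STZ. Every library of either STZ group lay under every Control library, and 8wk STZ spread widest. The log2 fold change was -0.99 in 8wk STZ against Control (SE 0.37, 95% interval -1.80 to -0.17, adjusted p = 0.219) and -0.42 in 4wk STZ against Control (SE 0.399, adjusted p = 0.823). Without 8wk STZ 2 the 8-week value was -0.72 (adjusted p = 0.228). The authors' deposited table gives -0.99 with an FDR of 0.0762. The low libraries 8wk STZ 2 and 3 had 7.56 and 16.2 CPM of endothelial markers and the low sums of border macrophage markers given for Adm. Control 2, with the highest Epas1, had 146 CPM of border macrophage markers. The part of these cells in the Epas1 levels was not tested.

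**Figure D2:**
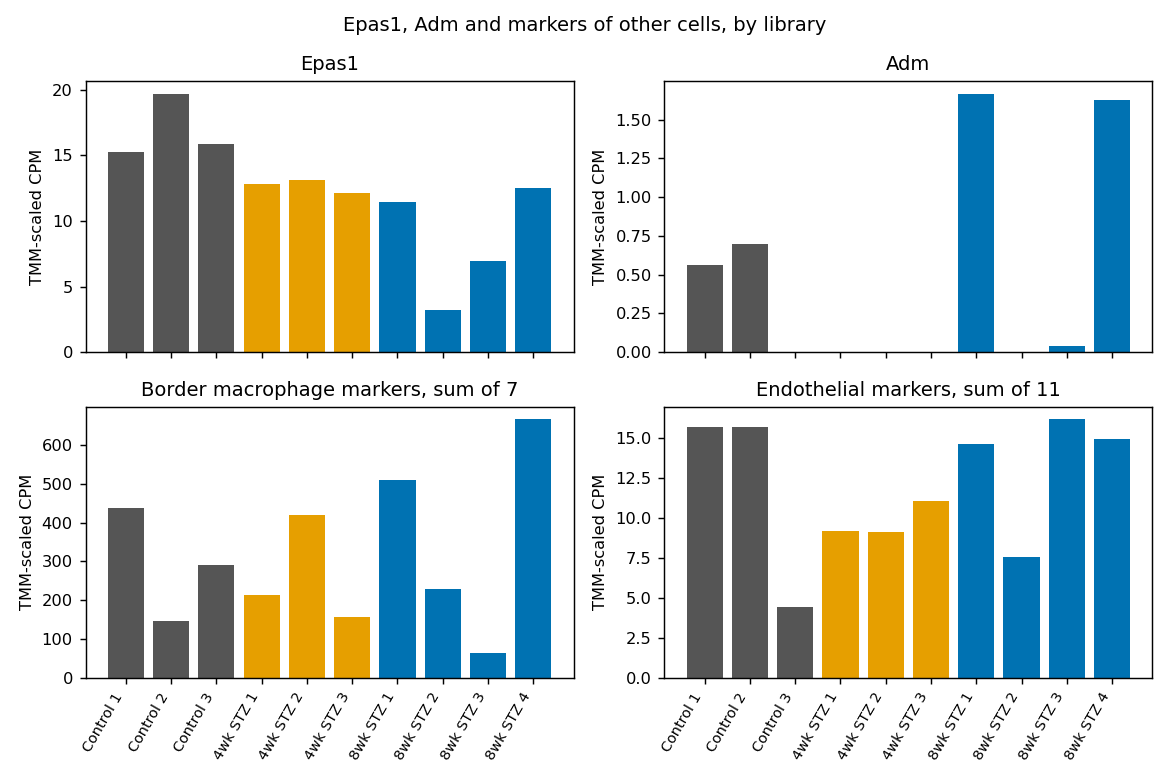
TMM-scaled CPM by library (bars from 0, horizontal axis: the 10 libraries) of Epas1, Adm, the sum of 7 border macrophage markers and the sum of 11 endothelial markers. 8wk STZ 1 and 4 hold most Adm reads and the largest border macrophage sums (511 and 666 CPM), while Epas1 is highest in Control 2, whose border macrophage sum is 146 CPM.

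Per length, Hif1a exceeded Epas1 in every library. The ratio was 4.70 ± 0.265 in Control (n = 3), 6.39 ± 1.12 in 4wk STZ (n = 3) and 9.06 ± 7.39 in 8wk STZ (n = 4), where it ran from 3.80 in 8wk STZ 4 to 19.9 in 8wk STZ 2. The Control and 4wk STZ ranges, 4.44 to 4.97 and 5.45 to 7.63, did not overlap, and 8wk STZ spanned both. No test was run on this ratio, which was chosen after the levels were seen.

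Vhl, the substrate recognition part of the ubiquitin ligase for HIF (chromosome 6, 113623959 to 113631633, plus strand), overlapped between the groups. Its levels were 127, 101 and 112 CPM in Control, 109, 94.0 and 108 CPM in 4wk STZ, and 77.4, 105, 101 and 94.1 CPM in 8wk STZ. The lowest library was in 8wk STZ and the highest in Control. The log2 fold change at 8 weeks was -0.26 with a 95% interval of -0.54 to 0.02 (adjusted p = 0.357), so a decrease by more than 0.54 on the log2 scale lies outside the interval.

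Egln1, the main oxygen sensor of the HIF pathway (chromosome 8, 124908587 to 124949324, minus strand), stood at 25.2, 14.8 and 19.2 CPM in Control. It was at 17.1, 16.4 and 14.7 CPM in 4wk STZ, and at 16.7, 14.03, 21.3 and 11.6 CPM in 8wk STZ. The ranges overlapped in part, with 8wk STZ 2 and 4 under every other library, and the log2 fold changes against Control were -0.29 at 4 weeks (SE 0.259, adjusted p = 0.799) and -0.31 at 8 weeks (SE 0.24, adjusted p = 0.635). The 8-week interval ran from -0.84 to 0.22.

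Bnip3 encodes a mitochondrial protein of mitophagy and is a HIF-1 target (chromosome 7, 138890836 to 138909519, minus strand). Its levels were 28.3, 33.2 and 37.9 CPM in Control, 28.6, 39.1 and 33.5 CPM in 4wk STZ, and 30.4, 27.4, 26.8 and 24.7 CPM in 8wk STZ. 3 of the 4 8wk STZ libraries lay under all others, and 8wk STZ 1 lay inside the range of the others. The log2 fold change at 8 weeks was -0.28 (SE 0.155, 95% interval -0.62 to 0.06, adjusted p = 0.447), and at 4 weeks 0.03 (SE 0.167, adjusted p = 0.981). Its ratio to Hif1a per length was 1.04 ± 0.243 in Control, 1.04 ± 0.159 at 4 weeks and 1.22 ± 0.121 at 8 weeks, and the groups overlapped. Antisense Gm45507, which shares 22.3% of its exonic bases, had no read counted in any library. As for Pdgfa, reads of the shared bases cannot be told apart by strand, so the level of Gm45507 stays unknown.

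**Figure D3:**
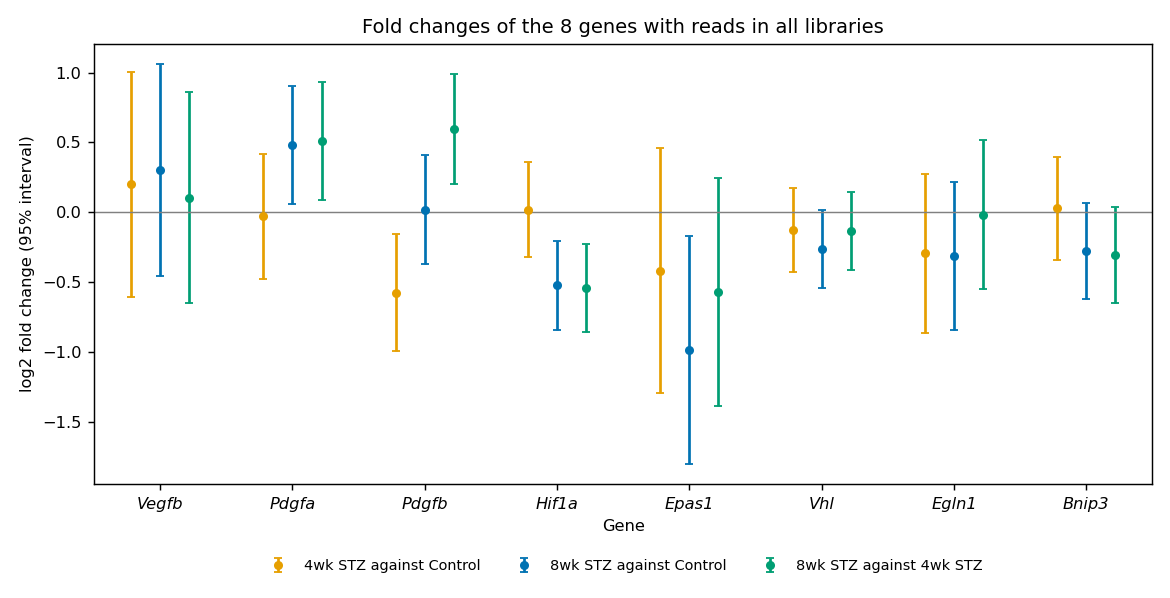
log2 fold change (vertical axis) with its 95% interval from the quasi-likelihood fit for the 8 genes with reads in all libraries, in 3 comparisons given by colour. The intervals of Hif1a and Pdgfa exclude 0 in both comparisons of 8wk STZ, those of Pdgfb in both comparisons of 4wk STZ, and that of Epas1 in 8wk STZ against Control, before adjustment over all genes.

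Other genes of the HIF system gave no call. Of 16 regulators, which include the HIF-1 beta subunit gene Arnt, the hydroxylases Egln2, Egln3 and Hif1an, and the ligase subunits Elob, Eloc, Cul2 and Rbx1, all were tested and none was called in any comparison. Their median log2 fold change was -0.0041 at 4 weeks and -0.05 at 8 weeks. The most abundant, the chaperone gene Hsp90ab1 and the coactivator gene Crebbp, stood at 734 ± 54 and 181 ± 18.2 CPM in 8wk STZ against 1052 ± 447 and 195 ± 51.4 CPM in Control (adjusted p = 0.257 and 0.844). Egln2, a second HIF prolyl hydroxylase named after its values were seen, stood at 54.5 ± 5.01 CPM in 8wk STZ, 35.4 ± 9.71 CPM in Control and 33.9 ± 3.82 CPM at 4 weeks (log2 fold change 0.62, adjusted p = 0.12, against Control).

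Among HIF targets, 7 of 20 genes of glycolysis and glucose uptake fell at 8 weeks and none rose, against the 1.4% of all genes that fell. The median log2 fold change of the list was -0.43. This list and that of targets outside glycolysis were chosen with earlier results of these data known. The count of fallen genes was not planned either, so it is a description and not independent support. Hk1, encoding hexokinase 1, fell from 128 ± 9.5 CPM (SD, n = 3) to 78.4 ± 6.92 CPM (n = 4), a log2 fold change of -0.70 (SE 0.098, adjusted p = 0.00581). Aldoa and Eno1, encoding aldolase and enolase, fell by 0.59 and 0.62 on the log2 scale (adjusted p = 0.0103 for both). Pkm, Pgam1 and Tpi1, encoding pyruvate kinase, phosphoglycerate mutase and triosephosphate isomerase, fell by 0.63, 0.65 and 0.57. Aldoc, the isoform known from brain and retina and named after its values were seen, fell from 79.5 ± 16.8 to 32.7 ± 11.8 CPM (adjusted p = 0.0449). The number fallen was 4 without Control 1, Control 2, 8wk STZ 2, 8wk STZ 3 or 8wk STZ 4, each left out alone, an alternative chosen after seeing the data. Markers of some other cells were lower in these libraries too. At 8 weeks 12 of 12 rod markers, 3 of 12 markers of inner retinal neurons, 3 of 11 tested markers of Müller glia and astrocytes, and 4 of 10 microglial markers fell, and 1 microglial marker rose. No marker of border macrophages, endothelium, pericytes and smooth muscle, pigment epithelium, or monocytes and neutrophils was called at 8 weeks. In that order, 5, 5, 2, 3 and 0 of their log2 fold changes lay above 0 and 2, 3, 4, 0 and 3 below. The inner retinal neuron markers summed to 210 to 233 CPM in Control and 79.5 to 121 CPM in 8wk STZ. The Müller glia and astrocyte markers without Apoe summed to 947 to 1417 and 679 to 981 CPM. Apoe, also on that list, went the other way, without passing the test. It ran from 1902 to 4487 CPM in Control and from 5178 to 19382 CPM in 8wk STZ. With Apoe the sums were 2850 to 5822 and 5967 to 20151 CPM. The part of these cells in the glycolytic genes was not tested.

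The 25 HIF targets outside glycolysis showed no such count. Of the 22 tested, none was called in any comparison, and 11 of the 22 values lay above 0 and 11 below at 8 weeks, with a median of 0.02. Bnip3l, a relative of Bnip3 in mitophagy, stood at 197 ± 20 CPM at 8 weeks, beside 189 ± 22.2 CPM in Control (adjusted p = 0.894). P4ha1, a collagen prolyl hydroxylase, stood at 178 ± 14.8 against 217 ± 12.3 CPM (adjusted p = 0.272). Whether the lists differ from each other was not tested. They were not matched for abundance, which affects how readily a gene is called. In Control, Eno1, the most abundant of the glycolysis list, stood at 1388 CPM, and P4ha1, the most abundant of the other, at 217 CPM.

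**Figure D4:**
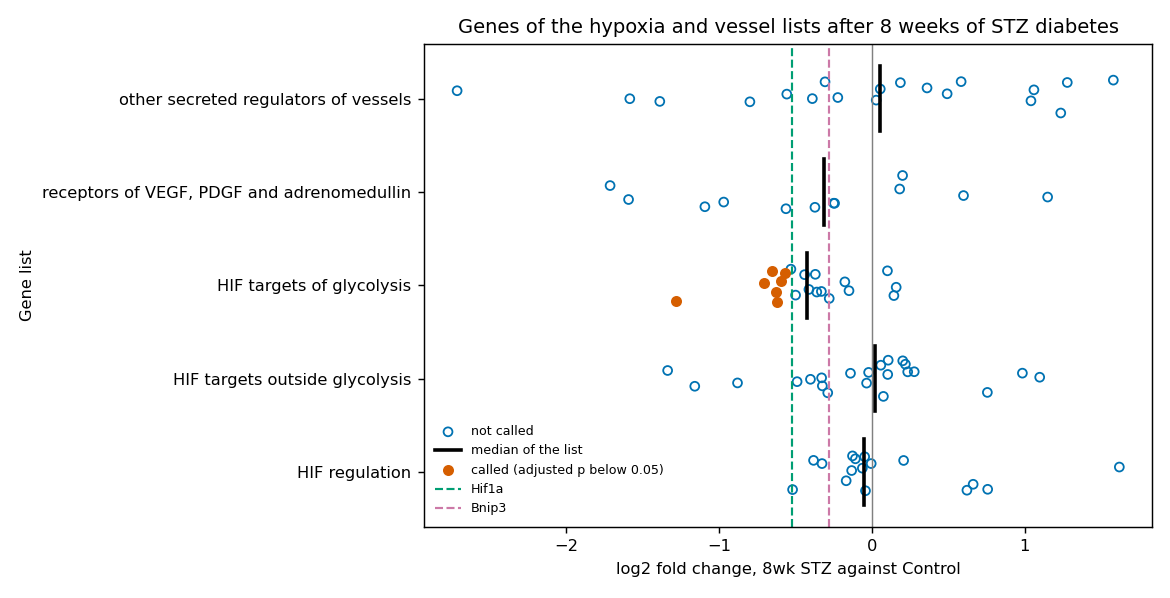
log2 fold change in 8wk STZ against Control (horizontal axis) of the tested genes of 5 lists (vertical axis, points spread vertically for legibility). Filled points passed the test, open points did not, black bars are list medians and dashed lines mark Hif1a (-0.52) and Bnip3 (-0.28); filled points appear in the list of glycolysis alone, where the median is -0.43.

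Of 13 genes of receptors for these ligands, 12 were tested and none was called in any comparison. Levels in Control ran from 0.0144 CPM for Ackr3, which did not pass the filter and was named after its values were seen, to those of Nrp1. The co-receptor gene Nrp1 was the most abundant, at 216 ± 46.2 CPM in Control, 190 ± 38.3 CPM at 4 weeks and 182 ± 29.2 CPM at 8 weeks (adjusted p = 0.85 and 0.618 against Control). Ramp1, whose product forms receptors for calcitonin family peptides, stood at 70.3 ± 3.73, 76.6 ± 5.29 and 80.8 ± 12.1 CPM. The median of the 12 was -0.27 at 4 weeks and -0.31 at 8 weeks.

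The genes most like Hif1a over the 10 libraries, by the root mean square difference of centred log2 CPM among 6803 genes whose mean log2 CPM reached 4, were Uba1 (0.0936), Spcs3 (0.0946) and Tram1 (0.095), against a median of 0.391 for these genes. Their mean levels in Control, 4wk STZ and 8wk STZ were 181, 179 and 130 CPM for Uba1, 235, 252 and 182 CPM for Spcs3, and 424, 433 and 285 CPM for Tram1. The mean of each was lowest in 8wk STZ, as for Hif1a, which follows from choosing them by their likeness to it in these libraries. For Vegfa the nearest genes were Zrsr1 (1.13), Gm14029 (1.16) and Zfp719 (1.35, against a median of 1.71), which is a loose likeness to a gene with few reads.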

How the data were processed

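The main deposited file gives whole-number read counts for each gene and library, not normalized, per the file headers. Tools listed in the submitters' processing notes are bcl2fastq, STAR, Subread, featureCounts, Salmon, edgeR, limma, with the build GRCm38. The handling of multi-mapping reads, strand setting and annotation release is not given in the sources used here. A second deposited table holds the authors' log2 fold changes and mean log2 CPM, a likelihood ratio score, and p-values with FDR for each STZ group against Control over 14475 genes, of which 8 of the 10 genes (not Vegfa and Adm) are listed, per the file headers. It was used only where named.

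Of 55774 entries, 287 repeated an Ensembl identifier with identical counts and were dropped. The filter filterByExpr left 18957 genes, scaled by TMM. A model of 3 group means was fitted to the 10 libraries (7 residual degrees of freedom) in edgeR 4.0.16 (R 4.3.3), with the robust quasi-likelihood F-test with Benjamini-Hochberg adjustment. The script was tested on simulated data with less spread between replicates than these libraries had. That test does not show how many true changes were missed here. SE and 95% intervals follow from the F statistic. Alternatives used DESeq2 1.42.0, limma-voom (limma 3.58.1), other scalings, no filter, and libraries left out. Lengths, coordinates and overlaps come from GENCODE vM21 (GRCm38). Where a symbol had several identifiers, that with the most reads was used. Replicates differed beyond sampling noise (chi-square over degrees of freedom 52.7 or more in each pair). Counting intervals and floors cover counting error only, since reads carry no molecular identifiers.

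The 10 genes and the lists were chosen with earlier results of these data known. Named genes are the 10, the called list members (up to 6 with the smallest p) or else the 2 most abundant, and the 3 genes nearest in pattern to Vegfa and Hif1a.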

Additional observations from a re-analysis of the deposited data

Results flagged for a closer look

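Pdgfb in 8wk STZ was marked because 1 library stood far from the others of its group. 8wk STZ 3 was at 85.9 CPM, and the other 3 libraries lay between 53.1 and 55.2 CPM, so that the gap took a share of 0.937 of the whole range. The threshold for marking a library is passed by chance in about 1 in 20 groups, and 10 genes were looked at in this group of 4. The same library had the lowest sum of border macrophage markers of all libraries, at 62.4 CPM, and the highest sum of pigment epithelium markers, at 46.7 CPM. The part of these cells in the Pdgfb level was not tested.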

How the results depend on the processing

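None of the 10 genes was called in any comparison with another scaling, without the filter, with limma-voom, with the replicate number as a block, or with any library left out. In fits of the 2 groups compared, none of the 9 tested was called (Adm was not tested at 4 weeks or between the times, nor Vegfa at 8 weeks). DESeq2 called 1 at 8 weeks (Hif1a) and 3 in 8wk STZ against 4wk STZ (Hif1a, Pdgfb and Adm), and edgeR's likelihood ratio test 1 (Hif1a) and 2 (Hif1a and Adm). Over all genes the calls at 4 weeks, at 8 weeks and between the times were 0, 449 and 174. They were 299, 1436 and 995 with DESeq2 and 244, 1166 and 759 with the likelihood ratio test, 12 at 4 weeks and 277 between the times without a filter, and 100 between the times with the 2 groups alone. Without Control 3 and 4wk STZ 3 they were 275 at 8 weeks and 6 between the times. With 1 library left out they ran from 0 to 1, 206 to 462 and 13 to 118. At 8 weeks each of the 7 Control and 8wk STZ libraries left out alone gave 255 or fewer, and between the times the lowest counts were 13 without 4wk STZ 3 and 14 without 8wk STZ 4. Of the 10 genes, those whose groups do not overlap ran from 2 to 5, 2 to 4 and 2 to 5. The share of all genes was not counted under these alternatives, so this range has no background to be read against. The cause of these shifts was not tested.

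The replicate numbers are not given as a pairing, and deviations of libraries with the same number correlated between -0.0297 and 0.0348. With the number as a block, 44 genes were called at 8 weeks and 0 between the times, none of the 10 among them, and 0 of the 20 glycolysis genes fell. DESeq2 and the likelihood ratio test gave 12 and 11 fallen glycolysis genes.

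The sign of the log2 fold change turned in the following cases, none of them called. With upper-quartile scaling Pdgfb at 8 weeks was -0.030, with library totals Vegfa at 8 weeks was 0.026 and Egln1 between the times 0.066, and without a filter Egln1 was 0.0074. With limma-voom Vegfa and Pdgfb at 8 weeks were 0.44 and -0.019, and with the replicate block Vegfa was 0.48 and Egln1 between the times 0.090. Without Control 3 and 4wk STZ 3, Vegfb, Pdgfa and Hif1a at 4 weeks were -0.039, 0.055 and -0.17. With 1 library left out, the values at 4 weeks ran from -0.11 to 0.77 for Vegfb, -0.18 to 0.11 for Pdgfa, -0.088 to 0.14 for Hif1a and -0.094 to 0.13 for Bnip3. At 8 weeks they ran from -1.12 to 1.69 for Vegfa, -0.0047 to 0.88 for Vegfb and -0.18 to 0.090 for Pdgfb, and between the times from -0.19 to 0.11 for Egln1 and -0.040 to 0.21 for Vegfb. Hif1a at 8 weeks kept its sign in all 20 alternatives (-0.61 to -0.40, adjusted p = 0.0134 to 0.254). Few reads limit Vegfa and Adm.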

Other observations

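Other vascular ligands had few reads as well. Of 11 further ligands, of the VEGF, PDGF and angiopoietin families with the peptide genes Apln, Adm2 and Calca, 5 passed the filter, none was called, and Vegfd had no read. Angptl4 and Pdgfc, the most abundant over all 10 libraries, stood at 0.427 ± 0.589 and 0.346 ± 0.599 CPM in Control, and at 0.341 ± 0.613 and 0.705 ± 0.662 CPM in 8wk STZ (adjusted p = 0.973 and 0.891).

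Of 21 other secreted regulators of vessels, 19 were tested and none was called in any comparison, with a median log2 fold change of 0.10 at 4 weeks and 0.06 at 8 weeks. The most abundant were Timp2, an inhibitor of matrix proteases, at 145 ± 35.5 CPM in Control and 124 ± 28.6 CPM in 8wk STZ, and Mmp2, a matrix protease, at 47.4 ± 3.65 and 49.3 ± 14.9 CPM (adjusted p = 0.676 and 0.957).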
